A study of Mus musculus with 9 samples.

Results

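Lrat and 6 genes for retinoid binding and uptake proteins were followed across 9 right ventricle arrays of the mouse heart. The 7 genes are Lrat, Rbp4, Stra6, Rbp2, Rbp7, Crabp1 and Crabp2. By the authors' annotation Rbp2, Stra6 and Crabp1 lie on chromosome 9, Rbp4 on 19, Rbp7 on 4 and Crabp2 on 3, and RefSeq puts Lrat on chromosome 3. They were picked by gene symbol, with every probe set of Lrat and the brightest probe set of each other gene, which gave 7 probe sets for 7 genes of the 22061 genes measured. Each value is a log2 signal, on which a difference of 1 is a doubling. The arrays fell into 3 groups of 3 samples from male mice, with right ventricle RNA taken after 50 days on the diet and hybridised to 1 array per sample. The first group was labelled Lrat-/- and fed a vitamin A deficient diet with no added retinol palmitate. The next was labelled Lrat-/- and fed a vitamin A sufficient diet, the same chow with 250000 U of retinol palmitate per kg. The last was wild type on the sufficient diet. No wild-type group on the deficient diet is among these samples, so the diet was compared only within the labelled Lrat-/- genotype. Age, strain and the design of the knockout allele are not given in the sources used here.

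Vitamin A travels in plasma as retinol bound to its carrier RBP4, and cells with the receptor STRA6 take it up from that carrier. Inside cells, cellular retinol-binding proteins hold retinol and hand it to enzymes, among them lecithin-retinol acyltransferase (LRAT), which esterifies it for storage. Retinol that is oxidised instead becomes retinoic acid, the ligand of nuclear receptors, and the cellular retinoic acid-binding proteins CRABP1 and CRABP2 carry it in the cytosol. The heart takes up both retinyl esters from lipoproteins and retinol from RBP4.

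Of the 7 genes, Lrat alone passed the test, being higher in both groups labelled Lrat-/- than in wild type, and Rbp7 had the next largest differences without passing it. The other 5 genes lay within 0.19 log2 units of 0 in every comparison. None of the 7 passed in the comparison of the deficient with the sufficient diet. The test was limma's moderated test with Benjamini-Hochberg adjustment over all genes, passed at an adjusted p under 0.05.

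Counted over the 7 genes, 1 passed in the genotype comparison on the sufficient diet, where 0.0363% of all genes passed. In the contrast of the labelled Lrat-/- deficient group with wild type, 1 passed against 0.068% of all genes, and in the pooled contrast, both labelled Lrat-/- groups together against wild type, 1 passed against 0.0861%. In limma's F test over the 3 groups 1 passed against 0.0408% of all genes. In the diet comparison 0 of 7 passed in limma, against 0% of all genes, and 0 of 7 had an unadjusted p under 0.05, against 1.31% of all genes. At that unadjusted level Lrat and Rbp7, 2 of 7, passed for genotype on the sufficient diet against 5.72%, for the labelled Lrat-/- deficient group over wild type against 6.09%, and in the pooled contrast against 7.42%. The 1 gene past the adjusted threshold was Lrat each time. The 7 genes were chosen with earlier results of these data known, so their counts beside the share of all genes are a description and not a test.

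The whole set of arrays gave the following frame. The median gene had a log2 signal between 7.16 and 7.21 on every array. The mean of the 5222 negative control probe sets was 5.69 in the labelled Lrat-/- deficient group, 5.67 in the labelled Lrat-/- sufficient group and 5.56 in wild type. Cardiac muscle markers were bright, all but Myh7b among the 10 listed lying between 12.9 and 14.5. The labels give the samples of a group a number and nothing more. A p-value from limma here weighs a difference between groups against the spread of samples within groups. Part of that spread may have a technical origin. With 3 arrays per group, the spread and the differences are known only roughly.

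**Figure D1:**
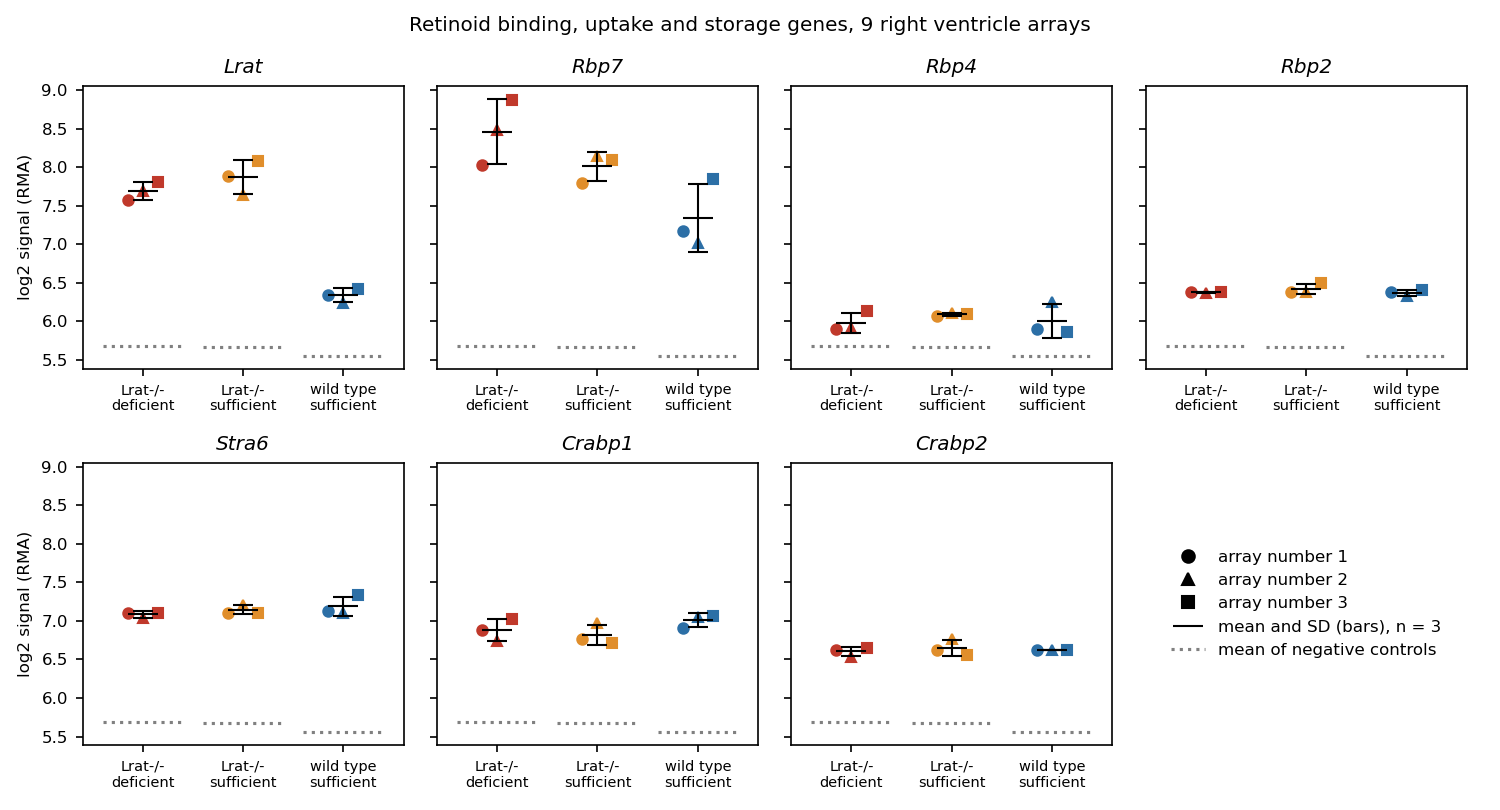
Log2 signal of each of the 7 genes on the 9 arrays, in 1 panel per gene, with all panels on the same log2 axis. Points are arrays, their shape is the replicate number, bars are the mean and SD of 3 arrays and the dotted line is the mean of the negative controls in each group. Lrat separates the wild-type arrays, at 6.24 to 6.43, from the 6 arrays labelled Lrat-/-, at 7.58 to 8.09, and Rbp7 is the only other gene with a visible step.

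Lrat, the retinol-esterifying enzyme, was read by 1 probe set, 10498978. Its log2 signal was 7.58, 7.69 and 7.81 in the labelled Lrat-/- deficient arrays, 7.88, 7.64 and 8.09 in the labelled Lrat-/- sufficient arrays, and 6.35, 6.24 and 6.43 in the wild-type arrays. All 6 arrays labelled Lrat-/- were above all 3 wild-type arrays, while the 2 diet groups overlapped. Where the probe set lies relative to the deleted part of the gene is not given in the sources used here, so a higher signal neither supports nor contradicts the genotype labels, and every direction below rests on those labels.

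Against the negative controls, the Lrat mean exceeded 90.2% of them in the labelled Lrat-/- deficient group, 92.0% in the labelled Lrat-/- sufficient group and 70.9% in wild type. Their 75th percentile was 6.69, 6.64 and 6.53 in the same order of groups, so the Lrat mean lay above it in both labelled Lrat-/- groups and below it in wild type. The wild-type signal thus lay within the range of most negative controls and was not above background by that measure, and each Lrat value against wild type below is a difference of measured signal, from which no fold of transcript can be read.

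On the sufficient diet the labelled Lrat-/- group exceeded wild type by 1.53 ± 0.12 (SE) on the log2 scale of signal, with an adjusted p of 0.00153 in limma. The labelled Lrat-/- deficient group exceeded wild type by 1.35, with an adjusted p of 0.00269, a contrast in which both genotype and diet differ. Both labelled Lrat-/- groups together exceeded wild type by 1.44 (95% interval 1.22 to 1.67), with an adjusted p of 0.000513. Between the diets the difference was -0.18 (95% interval -0.44 to 0.09) with an adjusted p of 1. In the authors' deposited table the diet ratio of Lrat was 0.860 with an unadjusted p of 0.00973, against an unadjusted p of 0.164 in limma here. That table comes from a model with a scan date term, which the fit here lacks, and which of these arrays share a scan date is not given in the sources used here. The authors' deposited table gives the scan date term a p of at least 0.999995 for each of the 7 genes. Values this high in every gene are not the spread of p that a term without effect would give. No absence of a scan date effect can be read from them, and the reason for them was not tested.

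Relative to all 22061 genes, Lrat ranked 3 by p in the genotype comparison on the sufficient diet. In the diet comparison its p ranked 1812. The SD of Lrat over the 9 arrays was 0.74, higher than in 99.8% of genes.

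An exact permutation test over the 9 arrays, two-sided, gave p = 0.0238 for the difference of Lrat between the 6 arrays labelled Lrat-/- and the 3 wild-type arrays, the smallest p that 84 splits allow. Leaving out any 1 wild-type array gave an exact permutation p = 0.0714 over 28 splits, again the smallest possible, with differences of 1.39 to 1.48. Without the 3 arrays numbered 3 the limma call of Lrat was lost in each contrast with wild type, with a pooled difference of 1.40 and an adjusted p of 0.0515. Fitted on the 2 sufficient-diet groups alone, the genotype difference of 1.53 had an adjusted p of 0.0666.

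The genes next to Lrat on chromosome 3 were measured on the same arrays. Map9, Npy2r and Rbm46 precede it in RefSeq order, and the fibrinogen genes Fgg, Fga and Fgb follow it. Their pooled genotype differences were -0.09, -0.12, 0.14, 0.05, 0.02 and 0.04 in that order, and none passed the test, with no adjusted p under 0.828. The largest of the 6, at 0.14, stood beside 1.44 for Lrat in the same contrast. All 6 were dim, with means from 4.85 for Fgg in wild type to 6.45 for Rbm46 in the labelled Lrat-/- arrays. These means lay below the 75th percentile of the negative controls, 6.53 to 6.69 by group. A change in genes this dim could go unseen, so no contrast with Lrat can be drawn from them.

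The 3 measured relatives of LRAT, the phospholipase A and acyltransferase genes Plaat1, Plaat3 and Plaat5, share its enzyme fold. Plaat3, a phospholipase abundant in fat tissue, averaged 9.88 in the labelled Lrat-/- sufficient group and 10.15 in wild type. None of the 3 passed the test in limma, and all 3 pooled differences were negative, between -0.21 and -0.07. In the pooled genotype contrast 1 of the 3 had an unadjusted p under 0.05, against 7.42% of all genes.

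By likeness of pattern, the 5 named genes whose signals tracked Lrat most closely were Pus7 (r = 0.971), Rerg (r = 0.960), Prelid2 (r = 0.949), Rsph3a (r = 0.945) and Lgr6 (r = 0.942). These are Pearson correlations over the 9 arrays among 4372 genes with an SD of at least 0.2, and the points share arrays and the step between genotypes. Of these 5, Pus7, Rerg, Rsph3a and Lgr6 passed the pooled genotype test, and Prelid2 had an adjusted p of 0.108.

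Rbp7, a cellular retinol-binding protein found in endothelium and fat in mice, had the other large difference. Its log2 signal was 8.03, 8.48 and 8.88 in the labelled Lrat-/- deficient arrays, 7.79, 8.14 and 8.10 in the labelled Lrat-/- sufficient arrays, and 7.17, 7.02 and 7.84 in the wild-type arrays. The deficient arrays all lay above the wild-type arrays, whereas the sufficient arrays overlapped both other groups. The means were 8.46 ± 0.42, 8.01 ± 0.19 and 7.34 ± 0.44 (SD, n = 3 each) in the labelled Lrat-/- deficient, labelled Lrat-/- sufficient and wild-type groups.

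The labelled Lrat-/- deficient group exceeded wild type in Rbp7 by 1.12 (95% interval 0.56 to 1.68), or 2.17-fold, with an unadjusted p of 0.00137 and an adjusted p of 0.315 in limma. Both labelled Lrat-/- groups together exceeded wild type by 0.89 (95% interval 0.41 to 1.38), or 1.85-fold, with an adjusted p of 0.263. On the sufficient diet alone the genotype difference was 0.66 (95% interval 0.11 to 1.22) with an adjusted p of 0.791. The diet difference was 0.45 (95% interval -0.11 to 1.01), or 1.37-fold, with an adjusted p of 1. None of these passed the threshold of 0.05 across all genes.

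The size of the Rbp7 differences stood high among all genes, at rank 14 in the contrast of the labelled Lrat-/- deficient group with wild type and at rank 39 for diet. Its spread within groups was high too, with a within-group SD of 0.37, above that of 97.9% of genes. For replicate numbers 1, 2 and 3, the same-number differences were 0.62, 1.12 and 0.25 for genotype on the sufficient diet and 0.24, 0.34 and 0.78 for diet, which share the sufficient arrays. Their sums, the labelled Lrat-/- deficient array over the wild-type array, were 0.86, 1.46 and 1.03. The diet value leaned on the array numbered 3 of the deficient group, without which it was 0.24, and it was 0.14 with array weights.

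The authors' deposited table gave Rbp7 ratios of 2.26 for the labelled Lrat-/- deficient group over wild type, 1.71 for the labelled Lrat-/- sufficient group over wild type and 1.32 for diet. Its false discovery rate for Rbp7 over the 3 groups was 0.561. The same table gave Lrat 0.00787.

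In whole tissue, fewer cells of a type and less RNA per cell cannot be told apart. Summarised as the mean of centred log2 signals, the 8 endothelial markers ran between -0.03 and 0.07 on the labelled Lrat-/- deficient arrays, between -0.18 and -0.00 on the labelled Lrat-/- sufficient arrays and between 0.01 and 0.15 on the wild-type arrays. Of these 8, 6 were lower in the labelled Lrat-/- arrays than in wild type by pooled difference, with a median of -0.12, opposite in sign to Rbp7. Between the diets 7 of the 8 were positive, with a median of 0.11, the same sign as Rbp7. The 9 adipocyte markers ran between -0.10 and 0.04 in the labelled Lrat-/- deficient group, -0.04 and 0.04 in the labelled Lrat-/- sufficient group and -0.02 and 0.10 in wild type. Adipoq, which defines fat cells, and Adrb3 were below the mean of the negative controls in all 3 groups. The other adipocyte markers were above it in all 3 groups, with Cfd at 7.05, 7.09 and 7.14 in the same order.

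The red blood cell markers ran in the same order as Rbp7. The 5 measured ones ran between -0.05 and 0.50 in the labelled Lrat-/- deficient group, -0.18 and 0.13 in the labelled Lrat-/- sufficient group and -0.52 and 0.02 in wild type, and all 5 had positive pooled differences, with a median of 0.41. None of the 5 passed the test in limma. At an unadjusted p under 0.05, 1 of 5 passed in the pooled contrast, against 7.42% of all genes. For the labelled Lrat-/- deficient group over wild type it was 2 of 5, against 6.09%. The part of any of these cell types in the Rbp7 result was not tested.

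Among the genes most like Rbp7 over the 9 arrays were Lvrn (r = 0.907), Pcdhb18 (r = 0.886), Amn1 (r = 0.884) and Sfrp5 (r = 0.882). None of these 4 passed the pooled genotype test. For Rbp4, Stra6, Crabp1 and Crabp2, the leading gene was Nme3 for Rbp4 (r = 0.940), Gsdma2 for Stra6 (r = 0.914), Zfp459 for Crabp1 (r = 0.892) and Actg2 for Crabp2 (r = 0.872).

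**Figure D2:**
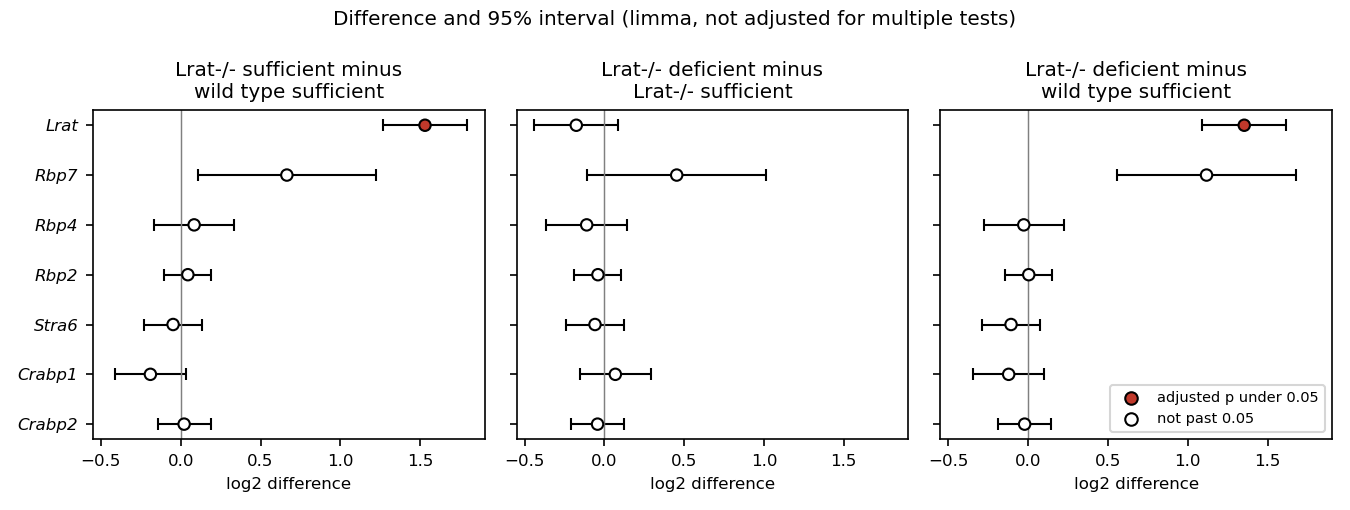
Log2 difference with its 95% interval for each gene, in panels for genotype on the sufficient diet, diet within labelled Lrat-/-, and labelled Lrat-/- deficient over wild type. Filled points passed an adjusted p of 0.05 in limma, which only Lrat did, at 1.53 and 1.35 in the 2 contrasts with wild type. The Rbp7 interval lies above 0 in those contrasts but its adjusted p did not pass.

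Rbp2, the cellular retinol-binding protein known from the small intestine, had the narrowest range of the 7 genes, with an SD of 0.04 over the 9 arrays. Its log2 signal was 6.38, 6.37 and 6.38 in the labelled Lrat-/- deficient arrays, 6.38, 6.38 and 6.49 in the labelled Lrat-/- sufficient arrays, and 6.38, 6.33 and 6.41 in the wild-type arrays. The groups overlapped, and 5 of the 9 arrays held the identical value, and at least 5 tied values occur in 5.9% of genes. The genotype difference on the sufficient diet was 0.04 (95% interval -0.10 to 0.19) and the diet difference -0.04 (95% interval -0.19 to 0.11). Its mean exceeded 68.3%, 70.2% and 71.6% of the negative controls in the labelled Lrat-/- deficient, labelled Lrat-/- sufficient and wild-type groups.

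The stretches before the RefSeq start sites of Lrat, Rbp7 and Rbp2 are shown because Lrat and Rbp7 had the largest differences and Rbp2, with the narrowest range, is the gene whose window held most matches to the retinoid receptor hexamer. Each is the 250 bases upstream, read 5′ to 3′ on the gene's strand in GRCm38.p6, at chr3:82903975-82904224 (minus strand) for Lrat, chr4:149454969-149455218 (minus strand) for Rbp7 and chr9:98490287-98490536 (plus strand) for Rbp2. Capitals mark matches on either strand to the hexamer AGGTCA, its variant AGTTCA, the variant GGGTCA and the variant GGTTCA.
Lrat: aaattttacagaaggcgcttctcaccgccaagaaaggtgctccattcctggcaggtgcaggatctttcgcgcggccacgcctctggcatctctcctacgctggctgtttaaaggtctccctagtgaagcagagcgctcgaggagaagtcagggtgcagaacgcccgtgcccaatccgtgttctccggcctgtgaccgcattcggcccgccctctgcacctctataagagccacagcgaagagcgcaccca
Rbp7: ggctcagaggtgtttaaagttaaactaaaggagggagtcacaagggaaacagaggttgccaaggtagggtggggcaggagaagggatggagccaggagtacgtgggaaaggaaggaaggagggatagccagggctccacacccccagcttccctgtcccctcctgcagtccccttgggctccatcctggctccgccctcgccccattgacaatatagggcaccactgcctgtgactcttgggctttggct
Rbp2: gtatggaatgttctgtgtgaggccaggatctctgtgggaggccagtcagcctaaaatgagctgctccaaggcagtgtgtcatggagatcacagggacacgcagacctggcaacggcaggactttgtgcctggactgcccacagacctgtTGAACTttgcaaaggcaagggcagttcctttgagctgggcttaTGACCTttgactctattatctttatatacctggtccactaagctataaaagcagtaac

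The Lrat and Rbp7 windows held none of these 4 hexamers, nor a pair of them as a direct repeat. The Rbp2 window held 2 on the opposite strand, TGAACT at position -101 and TGACCT at position -58 from the start site, and TATAAA at -15. Across 32851 RefSeq windows of this length, 38.6% held at least 1 of the 4 hexamers on either strand, 14% held AGGTCA itself and 7.59% held TATAAA on the gene's strand. The Lrat window had 18 CpG dinucleotides and 59.2% GC, and the Rbp7 window had 3 and 58.4%. Of the 7 genes, 6 had a window, and 1 of the 2 Rbp4 windows held TGACCC at position -53. A match is a string of letters and not a measured site, and a window without one says only that these letters are not in it.

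Rbp4, the plasma carrier of retinol, was dim on every array. Its log2 signal was 5.90, 5.91 and 6.13 in the labelled Lrat-/- deficient arrays, 6.07, 6.11 and 6.10 in the labelled Lrat-/- sufficient arrays, and 5.91, 6.26 and 5.86 in the wild-type arrays. The groups overlapped, and the wild-type arrays spanned the range of all the others. The genotype difference on the sufficient diet was 0.08 (95% interval -0.17 to 0.34) and the diet difference -0.11 (95% interval -0.36 to 0.14). The Rbp4 mean exceeded 58.7%, 62.2% and 62.9% of the negative controls in the labelled Lrat-/- deficient, labelled Lrat-/- sufficient and wild-type groups.

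Stra6, the membrane receptor that takes retinol up from RBP4, showed no difference past the test. Its log2 signal was 7.11, 7.03 and 7.11 in the labelled Lrat-/- deficient arrays, 7.11, 7.21 and 7.11 in the labelled Lrat-/- sufficient arrays, and 7.13, 7.11 and 7.33 in the wild-type arrays. The groups overlapped and 5 arrays held the same value. The difference was -0.05 (95% interval -0.23 to 0.13) for genotype on the sufficient diet, -0.06 (95% interval -0.24 to 0.12) for diet and -0.11 (95% interval -0.29 to 0.07) for the labelled Lrat-/- deficient group over wild type. By mean, Stra6 exceeded 82.2%, 83.6% and 85.7% of the negative controls in the labelled Lrat-/- deficient, labelled Lrat-/- sufficient and wild-type groups.

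Crabp1, a carrier of retinoic acid in the cytosol, had log2 signals of 6.89, 6.74 and 7.02 in the labelled Lrat-/- deficient arrays, 6.76, 6.97 and 6.72 in the labelled Lrat-/- sufficient arrays, and 6.90, 7.05 and 7.06 in the wild-type arrays. The groups overlapped. Its genotype difference on the sufficient diet, -0.19 (95% interval -0.41 to 0.03), was the lowest among the 7 genes, with an unadjusted p of 0.0877 in limma. The diet difference was 0.07 (95% interval -0.16 to 0.29). By mean, Crabp1 exceeded 78.6%, 78.1% and 83.0% of the negative controls in the labelled Lrat-/- deficient, labelled Lrat-/- sufficient and wild-type groups.

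Crabp2, which delivers retinoic acid to its nuclear receptors, had log2 signals of 6.63, 6.54 and 6.65 in the labelled Lrat-/- deficient arrays, 6.63, 6.76 and 6.56 in the labelled Lrat-/- sufficient arrays, and 6.63 in all 3 wild-type arrays. The identical value in 5 of 9 arrays leaves the spread of the wild-type group at 0. The genotype difference on the sufficient diet was 0.02 (95% interval -0.14 to 0.19) and the diet difference -0.04 (95% interval -0.21 to 0.12). The Crabp2 mean exceeded 73.4%, 75.1% and 76.9% of the negative controls in the labelled Lrat-/- deficient, labelled Lrat-/- sufficient and wild-type groups. Signals this near the controls limit what can be seen of Crabp2.

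By overlap of arrays, 1 of the 7 genes had groups that did not overlap in the genotype comparison on the sufficient diet, against 7.7% of all genes. In the contrast of the labelled Lrat-/- deficient group with wild type it was 2 of 7, Lrat and Rbp7, against 8.15%. In the pooled contrast it was 1 of 7 against 3.94%, and in the diet comparison 0 of 7 against 5.22%. The median difference of the 7 genes was 0.04 for genotype, -0.04 for diet and 0.02 pooled, beside medians of 0.00, -0.01 and -0.00 over all genes.

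**Figure D3:**
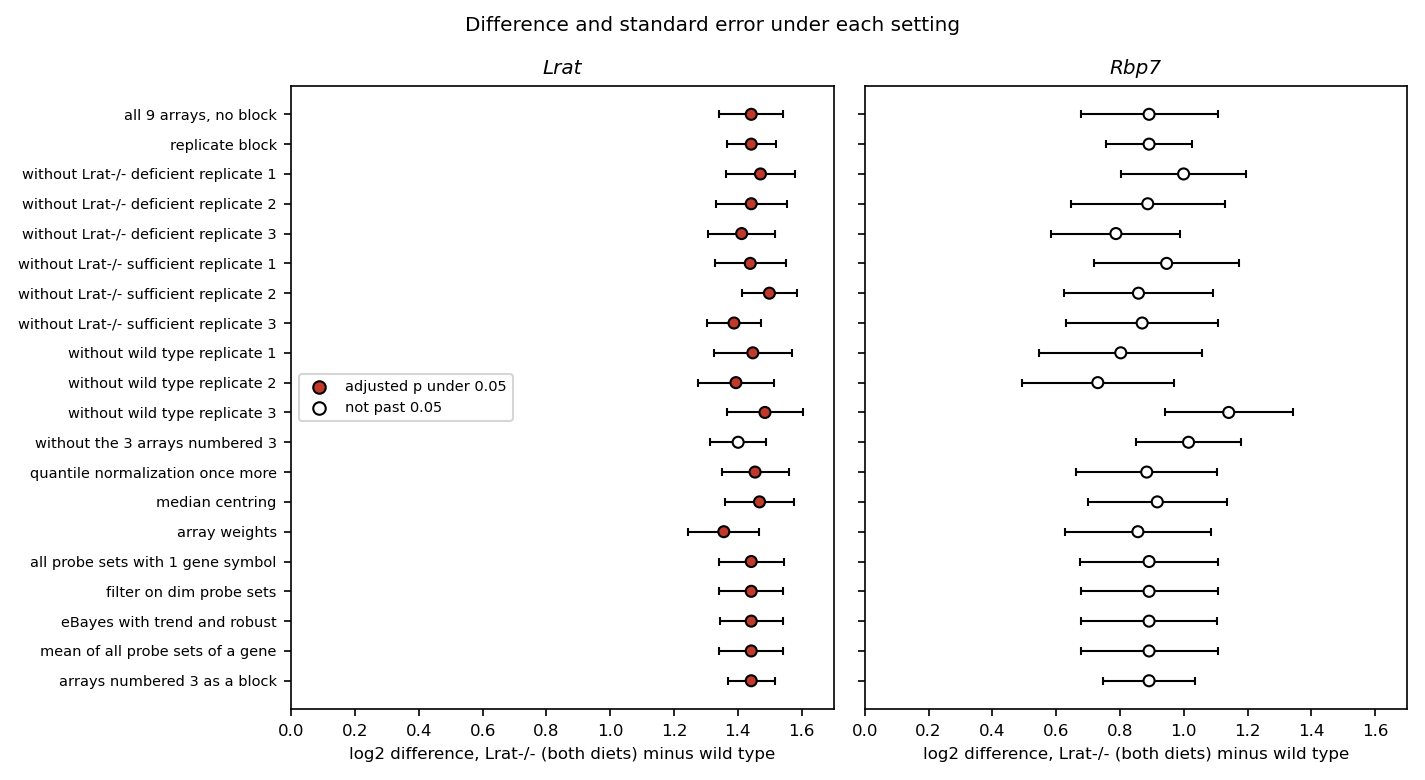
Difference of Lrat (left) and Rbp7 (right) between both labelled Lrat-/- groups and wild type, with its standard error, under each setting of the analysis. Filled points passed an adjusted p of 0.05. Lrat stays between 1.36 and 1.499 and misses the threshold only without the 3 arrays numbered 3, while Rbp7 stays between 0.73 and 1.14 and never passes.

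The rest of the retinoid pathway was read from lists of genes, none of which held a gene past the test in limma in any of the 4 contrasts. Dhrs3, Cyp26b1, Rarb and Isx each stand in more than 1 list. Among 10 other transport and binding genes, the pooled genotype median was 0.02 and the diet median -0.06. Cd36, a fatty acid and lipoprotein-lipid transporter abundant in muscle, averaged 13.29 in the labelled Lrat-/- deficient group, 13.32 in the labelled Lrat-/- sufficient group and 13.10 in wild type, a pooled difference of 0.21 with an adjusted p of 0.583. Cubn, an endocytic receptor, had a pooled difference of 0.19. Isx, an intestinal transcription factor that limits vitamin A uptake, had a diet difference of -0.26 with an unadjusted p of 0.0350 in limma. Isx was dim, with means of 6.23, 6.49 and 6.42 in the labelled Lrat-/- deficient, labelled Lrat-/- sufficient and wild-type groups. These lay below the 75th percentile of the negative controls in each group, so little can be read from its difference.

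Among 14 genes for making and cleaving retinyl esters, 9 had positive and 5 negative pooled differences, with a median of 0.02. Pnpla2, the main triglyceride lipase of heart muscle, averaged 12.04 in the labelled Lrat-/- deficient group, 12.00 in the labelled Lrat-/- sufficient group and 12.13 in wild type. Lipc, hepatic lipase, had a diet difference of -0.17. Of these 14, 0 had an unadjusted p under 0.05 in limma in the pooled or the diet comparison, against 7.42% and 1.31% of all genes.

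The 11 measured lipid-binding proteins of the family to which Rbp2, Rbp7, Crabp1 and Crabp2 belong had a pooled median of 0.00 and a diet median of -0.00. Fabp4, a fatty acid-binding protein of fat and capillary endothelium, averaged 11.28 ± 0.30 in the labelled Lrat-/- deficient group and 10.96 ± 0.23 in wild type (SD, n = 3 each), with a pooled difference of 0.18 and an adjusted p of 0.874. Fabp7, best known from brain, had a diet difference of 0.51 with an unadjusted p of 0.0101 and an adjusted p of 1 in limma.

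Among 26 enzymes that make or break down retinoic acid, 17 had negative pooled differences, with a median of -0.02. Dhrs3, which returns retinal to retinol and is induced by retinoic acid, averaged 10.11 ± 0.10 in the labelled Lrat-/- deficient group, 10.46 ± 0.04 in the labelled Lrat-/- sufficient group and 10.72 ± 0.14 in wild type (SD, n = 3 each). Its 3 groups did not overlap. The difference was -0.61 with an adjusted p of 0.0754 for the labelled Lrat-/- deficient group over wild type, -0.44 with 0.108 pooled, and -0.34 with 1 for diet, in limma.

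Cyp26b1, which degrades retinoic acid, followed the same order, with 7.08 ± 0.03, 7.31 ± 0.04 and 7.46 ± 0.10 (SD, n = 3 each) in the labelled Lrat-/- deficient, labelled Lrat-/- sufficient and wild-type groups. The pooled difference was -0.27 with an adjusted p of 0.248. Aldh1a2, a retinal dehydrogenase that makes retinoic acid and is also a marker of the epicardium, had a pooled difference of -0.42 with an adjusted p of 0.588. The 8 mesothelial markers ran between -0.46 and -0.11 on the labelled Lrat-/- deficient arrays, -0.04 and -0.01 on the labelled Lrat-/- sufficient arrays and 0.06 and 0.72 on the wild-type arrays, and all 8 had negative pooled differences. Their part in the Aldh1a2 value was not tested.

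The 6 retinoic acid receptors and retinoid X receptors all had negative diet differences, with a median of -0.08, and 0 had an unadjusted p under 0.05 in limma. Rarb, itself induced by retinoic acid, had the lowest, -0.22. Among 22 genes known to be induced by retinoic acid, 16 had negative diet differences, with a median of -0.05, where 45.2% of all genes were positive, and 3 had an unadjusted p under 0.05, against 1.31% of all genes. For the labelled Lrat-/- deficient group over wild type 19 of 22 were negative, with a median of -0.08, beside 45.7% positive among all genes. In the same contrast the mesothelial markers were negative in 8 of 8 (median -0.52), the macrophage markers in 8 of 8 (median -0.19) and the fibroblast markers in 7 of 8 (median -0.18). The mean of centred log2 signals of the 8 macrophage markers ran between -0.07 and -0.02 in the labelled Lrat-/- deficient group, -0.16 and 0.05 in the labelled Lrat-/- sufficient group and 0.01 and 0.39 in wild type. That of the 8 fibroblast markers ran between -0.14 and 0.03, between -0.12 and -0.05, and between 0.08 and 0.18 in the same order of groups. The part of these cell types in the values of the retinoic acid-induced genes was not tested. Counted at an unadjusted p under 0.05 in the pooled contrast, 3 of these 22 genes and 4 of the 26 enzymes passed, beside 7.42% of all genes. Dhrs3 and Cyp26b1 are counted in both lists, so the 2 counts are not separate. The lists were chosen with earlier results of these data known, so their counts beside the share of all genes are a description and not a test. Rarres2, the chemerin gene, and Tgm2, a transglutaminase, had pooled differences of -0.34 and -0.28 with adjusted p of 0.463 and 0.698.

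**Figure D4:**
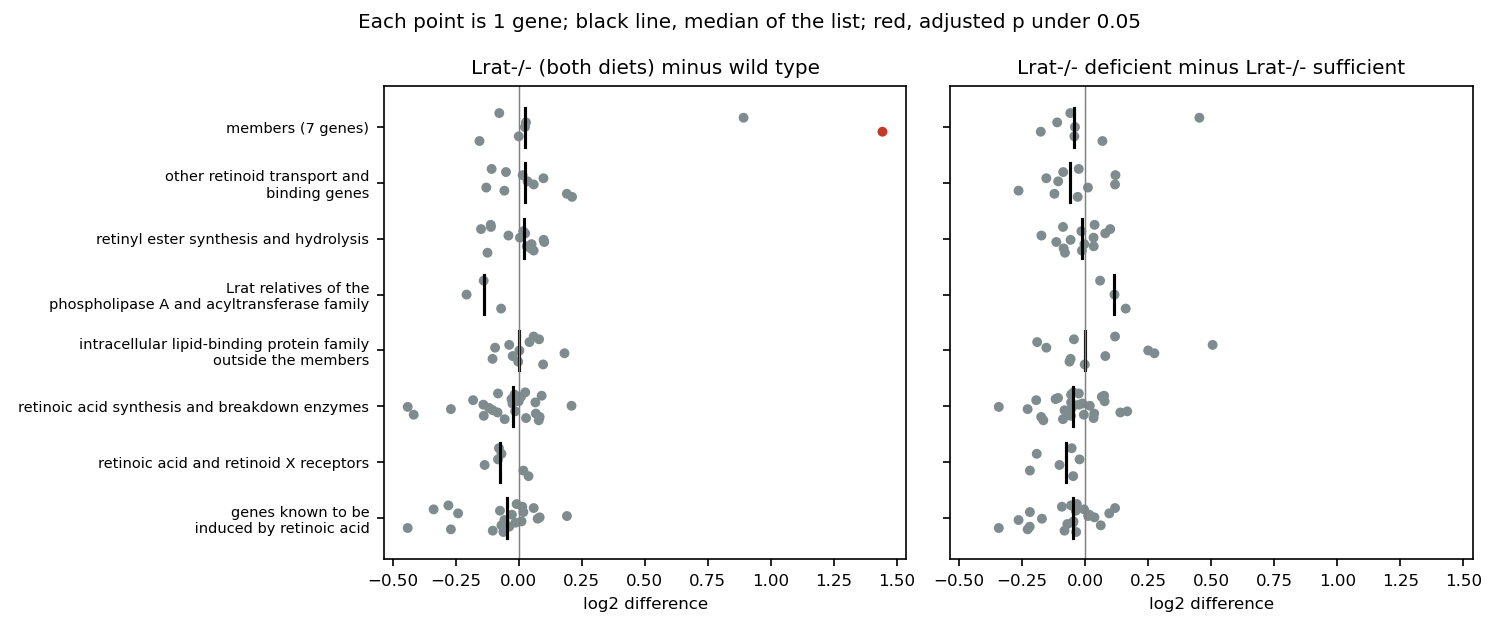
Log2 differences of every measured gene in the 7 retinoid-related lists and of the 7 genes themselves, 1 point per gene, with the list median as a black line. Lrat is the only red point, past an adjusted p of 0.05. Dhrs3 lies lowest, at -0.44 in the pooled genotype contrast.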

How the data were processed

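Right ventricle RNA from 9 samples was hybridised to Affymetrix whole-transcript arrays. The deposited log2 signals were used as given, and RMA, R 3.1.2 and the mm8 build are named in the submitters' processing notes. A normalized signal table deposited with the series supplied the gene symbols. Another 9 columns of signals in it match no sample here and were not used. The ratios and the p-values quoted as the authors' come from a separate table, called the authors' deposited table above. Of 35556 probe sets, 6546 are controls and 25465 carry 1 symbol, which left 22061 genes by the brightest probe set. Symbols were updated through RefSeq accessions for 22111 probe sets, through symbols for 1818 and synonyms for 625, and 911 kept the file's name.

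Differences were fitted with limma 3.58.1 (R 4.3.3), all 3 groups in 1 model with empirical Bayes and 6 residual degrees of freedom, with Benjamini-Hochberg adjustment over all genes and a threshold of 0.05. The pooled contrast sets the mean of both labelled Lrat-/- groups against wild type. The fit was tested on simulated data. Exact permutation enumerated every split of the arrays, with the two-sided rule that scipy uses. The members and lists were chosen with earlier results of these data known. Named besides the members were, from each list, any gene past the test and the 4 genes with the lowest unadjusted p for pooled genotype or diet, of which some are described, the 3 genes on each side of Lrat, and for each member the 5 most alike, of which 5 are given for Lrat, 4 for Rbp7 and 1 each for Rbp4, Stra6, Crabp1 and Crabp2, the rest not being reported here, leaving out predicted genes, RIKEN clones and olfactory receptors. Arrays with the same replicate number deviated together from their group means in all 9 pairs (r = 0.138 to 0.391, against -0.365 to 0.223 in the other 18). Deviations within a group sum to 0, so the other 18 pairs are not an independent reference. Wild-type array 1 went more with labelled Lrat-/- deficient array 2 (r = 0.223) than with array 1 of that group (r = 0.138). The check therefore does not settle whether the numbers pair the samples, and no label says what they share. Promoter sequences are RefSeq's. No depth applies to arrays.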

Additional observations from a re-analysis of the deposited data

How the results depend on the processing

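Lrat kept a positive difference from wild type under every setting run, from 1.36 to 1.499 pooled, and Rbp7 likewise, from 0.73 to 1.14, without an adjusted p under 0.05 in limma. With 1 array left out at a time, 1 member was called in each contrast with wild type and in the F test, and 0 for diet. Without the 3 arrays numbered 3, 0 members were called in the genotype, combined and pooled contrasts and the F test, with Lrat at 1.47 (adjusted p 0.110), 1.34 (0.0743) and 1.40 (0.0515), and with only the 2 groups 0 were called for genotype. Fewer samples entered these fits. The exact permutation difference of Lrat with 1 array left out ran from 1.381 to 1.485, with p of 0.0357 to 0.0714. Blocking on replicate number, the members called were 1 for genotype, 1 combined, 1 pooled and 0 for diet, Rbp7 had an adjusted p of 0.0614 pooled and 0.0713 combined, and no member's call changed. Genes called were 32 pooled with the block, against 19 without. Over all settings genes called ran from 2 to 27 for genotype (8 as reported), 0 to 2 for diet (0), 3 to 32 combined (15), 6 to 47 pooled (19) and 2 to 26 in the F test (9), highest without wild-type array 1 or 3 or with array weights, and the cause was not tested. Taking the arrays numbered 3 as a block, a setting chosen after seeing the data, gave 38 pooled. Signals near the negative controls, as for Rbp4, Rbp2 and Crabp2, limit what can be seen of these genes.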
